A study of Mus musculus with 7 samples.

Results

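The troponin genes encode the calcium switch of striated muscle, and their RNA was measured here in muscle stem cells (MuSCs) of WT and Jag2sm mice. The family as examined holds 8 genes, chosen by symbol: Tnnc1 and Tnnc2 for troponin C, Tnni1, Tnni2 and Tnni3 for troponin I, and Tnnt1, Tnnt2 and Tnnt3 for troponin T. All 8 were found by Ensembl identifier among the 56748 genes of the count files. Of these, 6 had enough counts to be tested, and Tnnc2 and Tnni3 did not.

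In a thin filament, tropomyosin lies along actin and keeps myosin away from it at rest. Troponin C binds calcium, troponin I holds actin in the blocked state until calcium arrives, and troponin T ties the complex to tropomyosin. Each subunit has isoform genes with their own fibre types. Tnni1 and Tnnt1 are the slow skeletal forms, Tnnc2, Tnni2 and Tnnt3 the fast skeletal forms, and Tnni3 and Tnnt2 the cardiac forms. Tnnc1 serves both slow skeletal and cardiac muscle. Tnnt2 is also known as the form that developing skeletal muscle makes early, and troponin genes as a whole are switched on when myoblasts differentiate.

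There were 3 WT libraries and 4 libraries from mice homozygous for Jag2sm, a natural missense allele of the NOTCH ligand gene Jag2. The study describes the allele as hypomorphic, whereas the sample labels give the genotype as Jag2-/-. Cells of adult hind limb muscle were depleted of CD31+, CD45+ and Sca1+ cells and enriched for integrin α7 on magnetic columns. The study's general culture methods keep such cells in growth medium with serum and bFGF, while its sequencing methods name no culture step. The study used the comparison to look for expression changes in Jag2 deficiency. No label says whether each library came from its own animal, so p-values measure only the spread between these samples.

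The genes lie in linked pairs in the mouse genome (GRCm39). Tnni1 (chromosome 1, 135707172 to 135738727, plus strand) is 25010 bases before Tnnt2 (135763738 to 135780315, plus strand), with 1 protein-coding gene between them. Tnnt1 (chromosome 7, 4507567 to 4519381, minus strand) and Tnni3 (4521300 to 4527228, minus strand) are 1918 bases apart with none between. Tnni2 (chromosome 7, 141995545 to 141998147, plus strand) is 50457 bases from Tnnt3 (142048605 to 142070280, plus strand), with 1 protein-coding gene between them. The troponin C genes stand alone, Tnnc1 on chromosome 14 (30930232 to 30933708, plus strand) and Tnnc2 on chromosome 2 (164619075 to 164621887, minus strand).

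The promoter stretches of 1 gene of each subunit are shown. These windows had the most bases outside annotated exons (213 for Tnnc1, 231 for Tnni1 and 221 for Tnnt1), and expression played no part in the choice. They come from the RefSeq promoter table (GRCm38.p6), where 6 of the 8 genes had an entry, all but Tnni2 and Tnnt3. Each was found once in GRCm39, and bases inside an annotated exon were left out. They span chr14:30930019-30930231 for Tnnc1, chr1:135726909-135727139 for Tnni1 and chr7:4519004-4519224, minus strand, for Tnnt1, all 5′ to 3′. Capitals mark E-boxes (CANNTG, the letters bound by MYOD and its relatives) and the M-CAT core (CATTCC on either strand, the letters bound by TEAD factors).
Tnnc1: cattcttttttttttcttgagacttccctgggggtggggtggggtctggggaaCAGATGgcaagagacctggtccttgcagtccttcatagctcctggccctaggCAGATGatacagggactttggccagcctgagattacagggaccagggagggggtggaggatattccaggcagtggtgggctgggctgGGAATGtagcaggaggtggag
Tnni1: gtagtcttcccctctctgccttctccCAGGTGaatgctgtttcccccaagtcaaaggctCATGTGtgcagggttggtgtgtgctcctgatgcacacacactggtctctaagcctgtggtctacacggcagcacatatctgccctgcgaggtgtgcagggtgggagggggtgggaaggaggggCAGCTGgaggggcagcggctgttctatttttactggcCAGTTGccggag
Tnnt1: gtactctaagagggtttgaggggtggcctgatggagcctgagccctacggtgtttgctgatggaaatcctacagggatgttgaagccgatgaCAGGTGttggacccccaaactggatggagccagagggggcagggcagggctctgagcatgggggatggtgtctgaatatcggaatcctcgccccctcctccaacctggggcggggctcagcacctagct
In the 250 bases before the start site, Tnnc1 held 2 E-boxes and 1 M-CAT core, which lay 58 bases before the start. Tnni1 held 4 E-boxes, the nearest 31 bases before the start, and Tnnt1 held 1 at 158 bases. The first of the Tnnt2 windows, which lies inside an annotated exon and is not shown, held 4 E-boxes and 1 M-CAT core. Among 32851 windows of that length, 66.2% held an E-box and 12.6% an M-CAT core. The MEF2 motif and the CArG box, searched by name on both strands and held by 2.92% and 1.47% of windows, had no match in any troponin window. These letter matches are descriptions and show no binding.

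Between 187834 (WT replicate 1) and 1937581 (Jag2sm replicate 3) reads per library were counted on genes. Of the aligned reads, 45.1% in WT replicate 1 lay on no gene, against 20.8% to 25.7% elsewhere. Unaligned reads made up 50.8%, 46.7% and 46.0% of Jag2sm replicates 1, 2 and 4 and 2.44% to 3.24% of the other libraries. Jag2 itself stood at 80.7, 114 and 116 CPM (a gene's count relative to its library's TMM-scaled size) in WT and at 42.4, 78.8, 71.9 and 77.4 in Jag2sm libraries. Its log2 fold change was -0.64 (SE 0.243, edgeR adjusted p = 0.166). The 4 Jag2sm values were below the 3 WT values, a separation that 12.2% of all tested genes showed. A missense allele need not change the level of its RNA, so this does not check the labels.

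Troponin RNA was much lower in Jag2sm than in WT MuSCs. The 8 genes together made up 10109 to 17806 CPM in WT libraries and 409 to 2754 CPM in Jag2sm libraries. Of the 6 tested genes, 5 fell (Tnnc1, Tnni1, Tnni2, Tnnt2 and Tnnt3) and none rose at an edgeR adjusted p under 0.05. Tnnt1, the slow troponin T gene, missed the threshold. Over all 9489 tested genes, 4.84% were called lower and 1.42% higher. In all 6 tested troponin genes every Jag2sm library was below every WT library, a separation that 12.2% of all tested genes showed. The median log2 fold change of the 6 was -3.27 and that of all tested genes 0.05. Whether a sample held fewer troponin-making cells or less troponin RNA per cell cannot be told apart in bulk RNA.

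**Figure D1:**
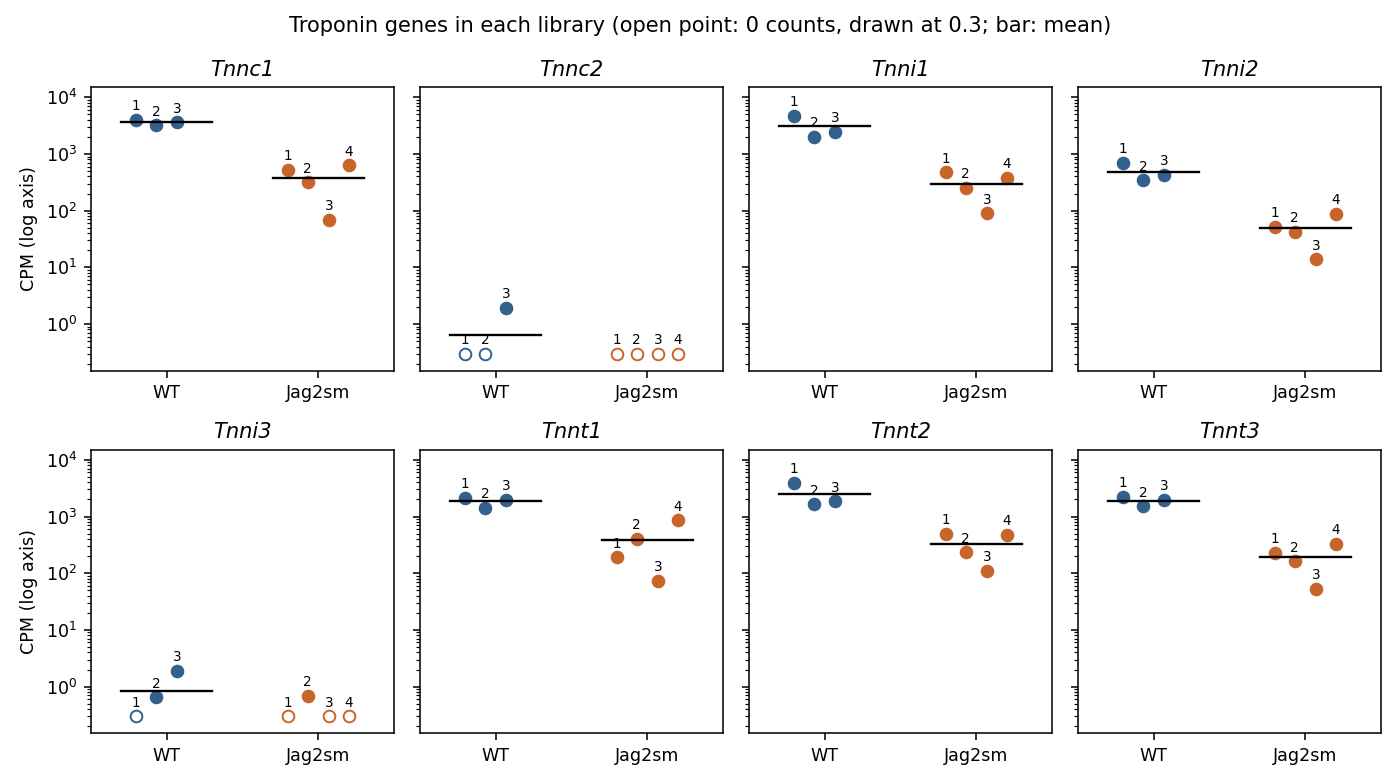
CPM on a log axis (vertical) of the 8 troponin genes in 3 WT and 4 Jag2sm libraries, each point 1 library with its replicate number, the bar the group mean, and open points libraries with 0 counts, drawn at 0.3. In the 6 tested genes every Jag2sm point lies below every WT point and Jag2sm replicate 3 is lowest, while Tnnc2 and Tnni3 never pass 1.90 CPM.

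The troponin C counts came almost wholly from Tnnc1. Tnnc1 stood at 4047, 3201 and 3586 CPM in WT replicates 1 to 3 and at 523, 316, 68.5 and 627 CPM in Jag2sm replicates 1 to 4. The WT libraries lay within 1.26 times of each other, whereas the Jag2sm libraries spanned 9.15 times, with replicate 3 far below the rest. Tnnc1 fell 9.43-fold (log2 fold change -3.24, SE 0.575, edgeR adjusted p = 0.0101; exact two-sided permutation p = 0.0286). That permutation p is the smallest that 3 libraries against 4 can give.

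Tnnc2, the calcium sensor of fast fibres, had 2 counts in WT replicate 3 and 0 in the other libraries. A total of 3 counts, taken as the limit of a count of 0, correspond to 1.08 CPM over the WT libraries and 0.554 CPM over the Jag2sm libraries, so no fold is given. The low Tnnc2 count contrasts with the fast genes Tnni2 and Tnnt3, which had 1099 and 4776 counts over the WT libraries. Of the 897 exonic bases of Tnnc2, 616 (68.7%) are shared with Ube2c, the gene of a ubiquitin-conjugating enzyme of the cell cycle, on the opposite strand. Ube2c had 3, 287 and 271 counts in WT and 197, 346, 616 and 286 counts in Jag2sm libraries. Reads that fit 2 genes, counted as ambiguous, made up 8.05% to 9.74% of aligned reads, and the strand setting of the counting is not given in the sources used here. The part of this overlap in the Tnnc2 count was not tested.

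Both skeletal troponin I genes fell by nearly the same factor. Slow Tnni1 stood at 4744, 1990 and 2438 CPM in WT and at 471, 252, 89.7 and 383 CPM in Jag2sm libraries. It fell 10.2-fold (log2 fold change -3.36, SE 0.523, edgeR adjusted p = 0.00605; exact permutation p = 0.0286). WT replicate 1, the shallowest library, was the highest for Tnni1, as it was for each tested troponin gene. Without it the log2 fold change of Tnni1 was -2.91 (edgeR adjusted p = 0.0124).

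Fast Tnni2 was the scarcer of the pair, at 703, 343 and 423 CPM in WT and at 52.3, 42.8, 13.8 and 88.9 CPM in Jag2sm libraries. It fell 9.87-fold (log2 fold change -3.30, SE 0.498, edgeR adjusted p = 0.00539; exact permutation p = 0.0286). Even its lowest library, Jag2sm replicate 3, held 28 counts, the fewest of any tested troponin gene.

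Cardiac Tnni3, the troponin I of the adult heart, had 0, 1 and 2 counts in WT and 0, 1, 0 and 0 counts in Jag2sm libraries. Both groups were at or under the limit of 3 counts, and no comparison is made. Of its exonic bases, 15.8% are shared with Dnaaf3 on the same strand.

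All 3 troponin T genes were detected in every library. Cardiac and developmental Tnnt2 stood at 3937, 1641 and 1844 CPM in WT and at 493, 232, 109 and 470 CPM in Jag2sm libraries. It fell 7.59-fold (log2 fold change -2.92, SE 0.515, edgeR adjusted p = 0.00959; exact permutation p = 0.0286). The lowest WT library was above 3 times the highest Jag2sm library. Without WT replicate 1, the highest library, the log2 fold change was -2.44 (edgeR adjusted p = 0.0224).

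Fast Tnnt3 stood at 2219, 1512 and 1946 CPM in WT and at 226, 162, 53.7 and 328 CPM in Jag2sm libraries. It fell 9.87-fold (log2 fold change -3.30, SE 0.491, edgeR adjusted p = 0.00539; exact permutation p = 0.0286). Its WT libraries were close together, so the spread was again mainly among Jag2sm libraries. Overlap with Prr33, on the opposite strand, covers 4.89% of its exonic bases.

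Slow Tnnt1 stood at 2156, 1422 and 1987 CPM in WT and at 191, 407, 73.9 and 858 CPM in Jag2sm libraries. The groups did not overlap, but the Jag2sm libraries spanned 11.6 times, the widest of the 6 genes, with replicate 4 high and replicate 3 low. The difference was 4.84-fold (log2 fold change -2.28, SE 0.629, edgeR adjusted p = 0.0606; exact permutation p = 0.0571). With the batch number of the labels as a block, it was -3.35 (edgeR adjusted p = 0.0108). Without Jag2sm replicate 4 it was -3.04 (edgeR adjusted p = 0.0124), and without Jag2sm replicate 3 it was -1.93 (edgeR adjusted p = 0.0397). The block leaves Jag2sm replicate 4, which is alone in its batch, without weight in the genotype difference. With all libraries kept, limma-voom, another fitting method, also called it (-2.80, limma-voom adjusted p = 0.0378). The Tnnt1 call thus hung on single libraries and on the method, while its direction did not.

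**Figure D2:**
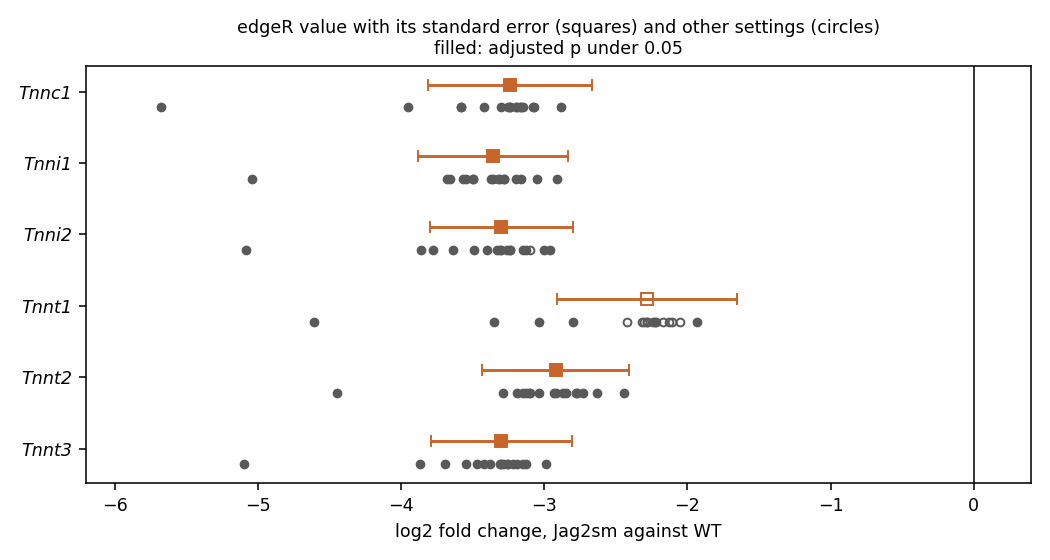
Log2 fold change of Jag2sm against WT (horizontal) for the 6 tested troponin genes, with squares and bars for the edgeR value and its standard error, circles for 17 other settings, and filled symbols for an adjusted p under 0.05. Every symbol lies below 0, between -5.68 and -1.93, and Tnnt1 is the gene with mostly open symbols.

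The tested genes held ranks from 82 (Tnni1) to 226 (Tnnt1) among the 9489 genes ordered from the largest fall, so the troponins were among the strongest falls but not at the very top. Within each of the 3 batch numbers that hold 1 WT and 1 Jag2sm library, all 6 genes were lower in Jag2sm. The separation of the groups already fixed this direction, so only the sizes are new. The log2 differences ran from -3.70 (Tnni2) to -2.95 (Tnnc1) in batch 1, from -3.33 (Tnnc1) to -1.80 (Tnnt1) in batch 2 and from -5.69 (Tnnc1) to -4.06 (Tnnt2) in batch 3. Batch 3 holds Jag2sm replicate 3, the library with the least troponin RNA and the deepest of all. It is also the Jag2sm library with few unaligned reads. When it alone was set against the 3 WT libraries, a comparison chosen after seeing the data, all 6 genes were called lower, with log2 fold changes from -5.68 (Tnnc1) to -4.45 (Tnnt2). That fit takes the lone library to vary as the WT libraries do. The part of the unaligned reads in the higher troponin levels of Jag2sm replicates 1, 2 and 4 was not tested.

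Levels of different genes were compared per kilobase of the canonical transcript. In WT the order of the means was Tnnc1 with 5008 ± 587, Tnni1 with 2767 ± 1337, Tnnt1 with 1686 ± 349, Tnnt2 with 1393 ± 716, Tnnt3 with 1079 ± 203 and Tnni2 with 669 ± 258 CPM per kilobase (SD, n = 3). Within each WT library Tnnc1 was above Tnni1, Tnni1 above Tnnt1 and Tnnt3 above Tnni2, while the order of Tnnt1 and Tnnt2 and that of Tnnt2 and Tnnt3 varied between libraries. Across libraries the ranges of all neighbours but Tnnc1 and Tnni1 overlapped. In Jag2sm libraries Tnnc1 led with 532 ± 342 and Tnnt1 came next with 348 ± 314, ahead of Tnni1 with 270 ± 150 CPM per kilobase (SD, n = 4). Tnnt2 followed with 184 ± 105, Tnnt3 with 110 ± 65.5 and Tnni2 with 67.6 ± 42.3 CPM per kilobase. The ranges of all neighbours overlapped across Jag2sm libraries, whose overall troponin level differed, but within each library this order held for every neighbouring pair except Tnnt1 and Tnni1. A long read can stand for 1 molecule whatever its length, so division by length may favour short transcripts.

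Summed over isoforms and per kilobase, troponin T made up 0.694 to 0.970 of troponin C in WT libraries and 0.799 to 1.67 in Jag2sm libraries. Troponin I made up 0.511 to 0.936 of troponin C in WT and 0.539 to 1.05 in Jag2sm libraries. The ranges overlapped in both ratios, and these sums were not tested. The troponin C sum rests on Tnnc1, since Tnnc2, whose exons are mostly shared with Ube2c, had almost no counts.

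The balance between isoform genes was compared within each library, where scaling between libraries plays no part. The slow Tnni1 made up 85.8% ± 1.09 of troponin I counts in WT (SD, n = 3) and 85.8% ± 3.66 in Jag2sm libraries (SD, n = 4). The log2 ratio of Tnni1 to Tnni2 was 2.60 ± 0.13 in WT and 2.62 ± 0.43 in Jag2sm, a difference of 0.02 (SE 0.23, exact permutation p = 0.943, adjusted p = 0.943 over 4 ratios). Slow and fast troponin I RNA therefore differed between genotypes in amount, while no difference in their ratio was detected.

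Troponin T was less even. The log2 ratio of slow Tnnt1 to fast Tnnt3 was -0.04, -0.09 and 0.03 in WT and -0.24, 1.33, 0.46 and 1.39 in Jag2sm libraries. WT libraries thus held nearly equal counts of both, while Jag2sm replicates 2 and 4 held far more Tnnt1. The means differed by 0.77 (SE 0.39, exact permutation p = 0.229, adjusted p = 0.457), which did not exceed the spread between libraries. Cardiac Tnnt2 against Tnnt3 differed by 0.51 (SE 0.32, exact permutation p = 0.171, adjusted p = 0.457) and Tnnt2 against Tnnt1 by -0.26 (SE 0.62, exact permutation p = 0.743, adjusted p = 0.943).

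As a share of troponin T counts, Tnnt3 took 26.7%, 33.0% and 33.7% in WT and 24.8%, 20.2%, 22.7% and 19.8% in Jag2sm libraries. These shares did not overlap, nor did they per kilobase (23.3%, 28.0% and 28.1% against 22.2%, 15.5%, 19.2% and 15.2%). The per-kilobase shares use the same counts, and no test of a share was made. The shares of Tnni1, Tnni2, Tnnt1 and Tnnt2 overlapped between genotypes, as did the tested ratios with Tnnt3. For the Tnnt3 share, the 95% exact binomial intervals of WT replicate 1 (24.4% to 29.1%) and Jag2sm replicate 1 (21.6% to 28.4%) overlapped, and such intervals cover counting error only. Tnnt1 took 30.5% ± 4.26 in WT and 38.7% ± 15.2 in Jag2sm libraries, and Tnnt2 38.4% ± 8.03 and 39.4% ± 12.8.

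**Figure D3:**
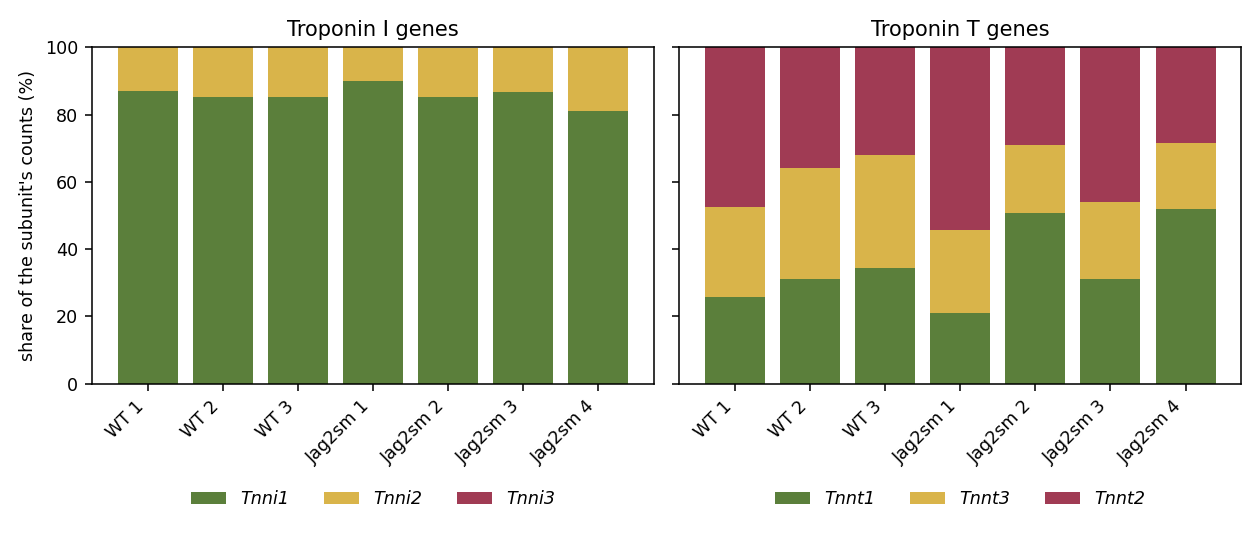
Share of troponin I counts (left) and of troponin T counts (right) taken by each gene, in percent, with 1 stacked bar per library. Tnni1 holds 81.2% to 90.0% of troponin I in every library, while the Tnnt1 share runs from 21.0% to 51.8% in Jag2sm libraries.

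**Figure D4:**
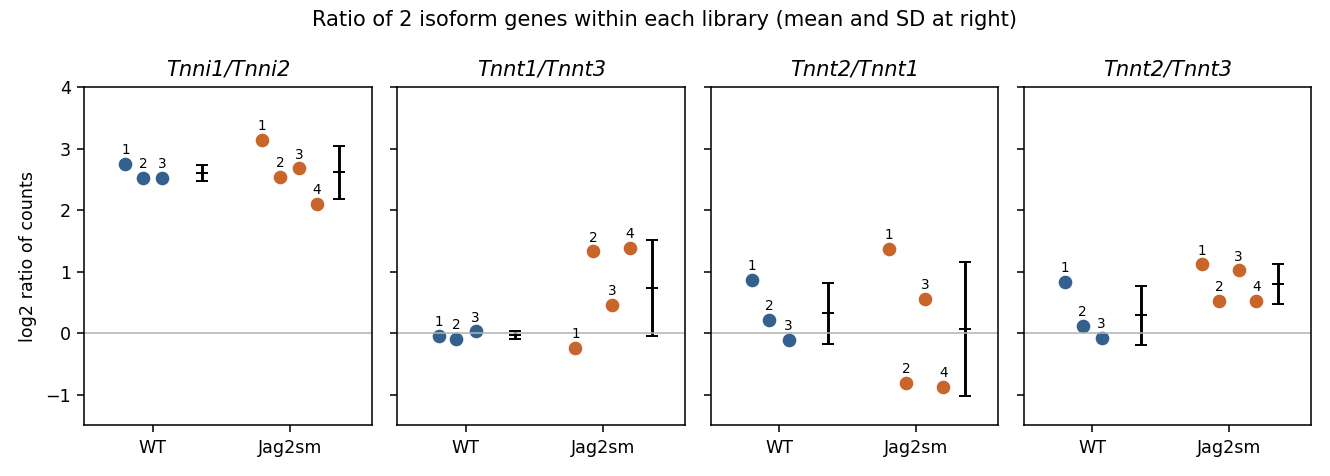
Log2 ratio of counts of 2 isoform genes (vertical) in each library, with replicate numbers, and the mean and SD of each genotype at the right of its points. The WT and Jag2sm points overlap in all 4 ratios, and Tnnt1/Tnnt3 is tight in WT and spread in Jag2sm.

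Across the 7 libraries the 6 tested genes rose and fell together, with Pearson correlations of log2 CPM from 0.90 to 1.00. The difference between genotypes enters these values. In deviations from each genotype's mean, pairs without Tnnt1 still correlated at 0.89 to 0.99. The correlation was 0.99 for Tnni1 with Tnnt2, which are neighbours on chromosome 1, and 0.98 for the neighbours Tnni2 and Tnnt3. It was also 0.99 for Tnnc1 with Tnnt3, which lie on different chromosomes. Tnnt1 followed the others least, with 0.66 to 0.88. These are descriptions over 7 libraries that share depth and scaling with every gene in them.

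The 5 genes whose log2 CPM followed the mean of the tested troponins most closely were Myl6b (a slow and embryonic myosin light chain), Dclk1 (a microtubule-binding kinase), Srl (sarcalumenin of the sarcoplasmic reticulum), Erbb3 (a neuregulin receptor) and Lmo7 (an actin-associated LIM protein). Their correlations ran from 0.9970 to 0.9982 over 7 libraries, and all 5 fell, with log2 fold changes from -3.12 (Srl) to -2.51 (Lmo7).

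The partners of troponin on the thin filament were mostly lower as well. Of 24 listed genes 21 were tested, of which 14 fell and 1 rose, with a median log2 fold change of -2.64. Of all tested genes, 4.84% were called lower and 1.42% higher. The 3 largest falls were Lmod2, a leiomodin that lengthens thin filaments (198 to 12.6 CPM, log2 fold change -4.00, SE 0.512, edgeR adjusted p = 0.00285), Tmod1, which caps their pointed ends (24.6 to 1.89 CPM, -3.34, SE 0.750, adjusted p = 0.0260), and Acta1, skeletal α-actin (8825 to 912 CPM, -3.28, SE 0.630, adjusted p = 0.0132). Tpm4, a tropomyosin of the non-muscle cytoskeleton, rose from 135 ± 53.7 to 380 ± 141 CPM (log2 fold change 1.42, SE 0.365, edgeR adjusted p = 0.0456), a call lost when any library but Jag2sm replicate 4 was left out. Tpm3 (453 and 219 CPM, edgeR adjusted p = 0.174), Capzb (359 and 365 CPM, adjusted p = 0.971) and Capza2 (228 and 170 CPM, adjusted p = 0.255) did not pass. Without Jag2sm replicate 2 the number called lower was 9, and with Jag2sm replicate 3 alone against WT it was 7.

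Fibre-type partners of both kinds fell with the troponins, where 4.84% of all tested genes were called lower. Of 10 slow fibre genes 8 were tested and 6 fell (median log2 fold change -3.00), led by Myh7, the slow myosin heavy chain (101 ± 132 to 2.21 ± 1.86 CPM, -5.05, SE 1.07, edgeR adjusted p = 0.0200), Myl2, its regulatory light chain (72.6 ± 82.0 to 1.83 ± 0.673 CPM, -4.89, SE 0.811, adjusted p = 0.00749), and Mb, myoglobin (52.6 ± 64.3 to 1.94 ± 1.61 CPM, -4.42, SE 0.944, adjusted p = 0.0205). For each of these genes the WT SD exceeded the WT mean. Tpm3 and Fhl1 (-1.96, SE 0.718, adjusted p = 0.152) did not pass. Without Jag2sm replicate 2 the number was 3, and with Jag2sm replicate 3 alone it was 2.

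Of 11 fast fibre genes 8 were tested and 7 fell (median -3.74), beside 4.84% of all tested genes called lower. Myh4, the myosin of the fastest fibres, went from 86.6 ± 54.8 to 1.46 ± 1.49 CPM (log2 fold change -5.55, SE 0.588, edgeR adjusted p = 0.00152). Casq1, the fast-fibre calsequestrin, changed by -4.03 (SE 0.534, adjusted p = 0.00324) and Myh1 by -3.84 (588 ± 602 to 39.7 ± 32.2 CPM, SE 0.800, adjusted p = 0.0185), whereas Mylk2 did not pass (-0.68, SE 0.685, adjusted p = 0.639). All 4 developmental genes fell, namely Myh8, perinatal myosin (-3.88, SE 0.628, adjusted p = 0.00695), Myh3, embryonic myosin (2261 ± 322 to 245 ± 138 CPM, -3.21, SE 0.475, adjusted p = 0.00539), Myl4 (-2.96, SE 0.548, adjusted p = 0.0115) and the cardiac actin gene Actc1 (-2.69, SE 0.614, adjusted p = 0.0278), which is also on the thin filament list. Without Jag2sm replicate 2 there were 2 developmental calls. Exons of other genes on the opposite strand cover 39.5% of the exonic bases of Myl6b, 24.6% of Myh7, 24.4% of Tmod1 and 700 of the 2287 exonic bases of Mb, so their counts are uncertain without a known strand setting. 

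**Figure D5:**
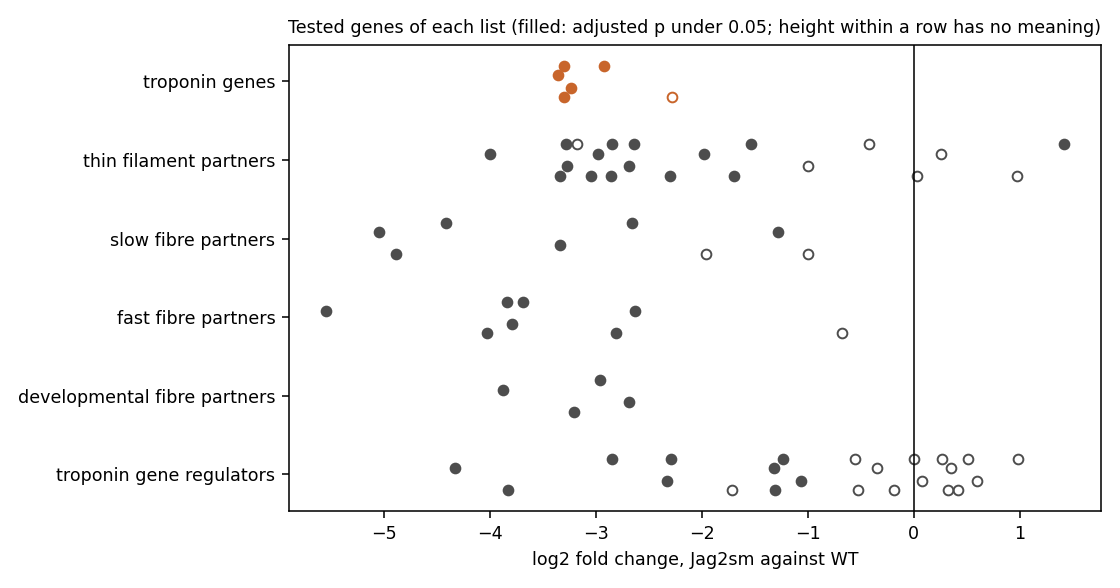
Log2 fold change of Jag2sm against WT (horizontal) for the tested genes of the troponin list and of 5 partner lists, each point 1 gene, filled where the edgeR adjusted p was under 0.05. Most genes of the thin filament and fibre lists lie between -5.55 and -1, Tpm4 is the filled point above 0, and the regulators spread from -4.33 to 0.98.

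Genes that regulate troponin transcription were split. Of 25 listed 23 were tested, 9 fell and none rose, with a median log2 fold change of -0.53. Over all tested genes the shares were 4.84% lower and 1.42% higher. The largest falls were Myf6, the late myogenic factor MRF4 (79.6 ± 75.9 to 3.35 ± 2.70 CPM, -4.33, SE 0.692, edgeR adjusted p = 0.00656), Mef2c (680 ± 321 to 47.9 ± 25.1 CPM, -3.83, SE 0.480, adjusted p = 0.00285) and Tead4, a factor of the M-CAT site (153 ± 77.5 to 20.2 ± 6.05 CPM, -2.85, SE 0.360, adjusted p = 0.00285). Among the most abundant of those that did not pass were Myod1, the myoblast determination factor (778 ± 71.0 and 685 ± 86.3 CPM, -0.19, SE 0.221, adjusted p = 0.696) and Tead1 (219 and 167 CPM, -0.35, SE 0.230, adjusted p = 0.438). Without Jag2sm replicate 2 or with Jag2sm replicate 3 alone 3 regulators were called lower, and without WT replicate 2 it was 5.

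The labelled cell type was checked against marker genes, beside 4.84% of all tested genes called lower and 1.42% called higher. Pax7, the defining gene of MuSCs, was present in both genotypes (68.4 CPM in WT and 132 in Jag2sm, log2 fold change 0.80, edgeR adjusted p = 0.174). It did not pass. Its level in every Jag2sm library was above that in every WT library, but the share of all tested genes separated upward was not counted. Of 10 satellite cell and myoblast markers 9 were tested and 1 fell, Des, the muscle intermediate filament gene (2761 to 889 CPM, log2 fold change -1.63, edgeR adjusted p = 0.0244). The list summed to 3768 to 6370 CPM in WT and 2483 to 2931 CPM in Jag2sm libraries. Des had the highest mean of the list in both genotypes and so weighed most in these sums. Of 9 mature myofibre markers, most of them also on the fast list, 6 were tested and 5 fell, with sums of 565 to 2605 CPM in WT and 53.2 to 195 CPM in Jag2sm libraries. The cardiomyocyte markers summed to 9.05 to 11.5 CPM in WT and 0.493 to 9.90 CPM in Jag2sm libraries, and Nppa, Nkx2-5, Myl7 and Hand2 were at 0 counts in all 7, whereas Tnnt2 and Tnnc1 averaged 2474 and 3611 CPM in WT. Endothelial markers reached at most 17.0 CPM, immune markers 5.69, fibro-adipogenic markers 45.6 and glial markers 17.0 in any library, with Kdr, Tie1, Ptprc, Adgre1, Lyz2, Cd3e, Tyrobp and Dpt at 0. The mural markers, mostly Acta2, which myoblasts also make, summed to 1066 to 1962 CPM in WT and 867 to 2336 CPM in Jag2sm libraries, and of 4 tested 1 fell (Abcc9, log2 fold change -3.71, SE 0.721, edgeR adjusted p = 0.0139). Rgs5 did not pass, at 12.9 ± 1.35 CPM in WT and 185 ± 307 CPM in Jag2sm libraries (log2 fold change 3.73, SE 1.32, edgeR adjusted p = 0.135). For Rgs5 too every Jag2sm library was above every WT library, again without a counted share of all tested genes beside it. Notch3 (0.66, adjusted p = 0.501) and Acta2 (-0.26, adjusted p = 0.781) did not pass either.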

How the data were processed

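The authors sequenced direct cDNA on Nanopore flow cells, aligned the reads to GRCm39 (minimap2 2.17) and deposited raw counts per gene made with HTSeq. The annotation release and the strand setting are not given in the sources used here. The authors' table of their own DESeq2 comparison (mean level, fold change, p-values) was not used. Of 56748 identifiers, 56017 were found in GENCODE M39, which gave symbols, places and transcript lengths.

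Counts were fitted in R 4.3.3 with edgeR 4.0.16 (TMM, filterByExpr with a minimum count of 10 and minimum total of 15, glmQLFit, glmQLFTest, no covariate), and calls were made at 0.05 after Benjamini-Hochberg adjustment over 9489 genes. Log2 CPM used a prior count of 2, and isoform ratios 0.5 added counts and at least 10 counts for each gene. Permutation tests were two-sided and exact over 35 assignments. Alternatives used DESeq2 1.42.0 and limma 3.58.1. The code was tested on simulated data.

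The members and lists were chosen with earlier results of these data known. Beyond the 8 troponin genes, the text names the 3 largest falls and rises called in each list, the 3 most abundant genes not called, and the 5 genes most like the troponins. A gene that this rule would name among the regulators is not reported here. Other named genes (Jag2, Ube2c, Dnaaf3, Prr33, the markers) were needed beside a result. The labels give each library a batch number equal to its replicate number, so the numbers pair replicates 1 to 3. Deviations from the genotype means correlated at 0.154, -0.0453 and 0.117 within the pairs across genes, which are not independent replicates. A limit of 3 counts equals 1.48 to 17.3 CPM in single libraries and covers counting error only.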

Additional observations from a re-analysis of the deposited data

Results flagged for a closer look

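Tnni3 had 1 count in Jag2sm replicate 2 and 0 in the other 3 Jag2sm libraries, so the gap of that library from the rest made up the whole range of the group (ratio 1.00, above the critical value of Dixon's test for 4 samples). It is a single read. Of 11 such checks this was the one that stood out, and chance alone marks about 1 group in 20.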

How the results depend on the processing

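The 6 tested troponin genes were lower in Jag2sm under all 17 other settings, and between 5 and 6 of them were called when each library was left out in turn. Tnnt2 and Tnnt3 were called in all 17 settings, Tnnc1, Tnni1 and Tnni2 in 16, and Tnnt1 in 6, among them limma-voom (-2.80, adjusted p = 0.0378) and no filter on low counts (-2.22, adjusted p = 1.07e-08). Without the filter the edgeR adjusted p of all 6 genes was far smaller at nearly unchanged fold changes (Tnnc1 -3.19, adjusted p = 7.63e-15). The reason was not tested. The counts were also thinned in a single random draw, and why calls were then lost was not tested. Thinned to the smallest library, 4012 genes were tested, 22 called lower and 0 higher, and 2 troponin genes were called, while Tnnc1 (-3.16, adjusted p = 0.138), Tnni1 (-3.32, adjusted p = 0.134) and Tnni2 (-3.10, adjusted p = 0.0860) were not. The batch number as a block changed the call of Tnnt1 and of no other troponin gene. That fit gives no weight in the genotype difference to Jag2sm replicate 4, which is alone in its batch.

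After thinning, calls of lower genes were 3 for thin filament, 0 for slow, 3 for fast and 1 for developmental partners and 1 for regulators, and 0 thin filament genes were called higher. With at least 10 counts in every library they were 3 for slow and 4 for fast partners, since fewer genes were tested. With few unaligned reads (Jag2sm replicate 3 alone against WT) they were 7 for thin filament and 2 for slow partners and 3 for regulators, and 0 thin filament genes were called higher. Without a filter 2 thin filament genes were called higher. With 1 library left out, thin filament calls ranged from 9 to 14 lower and 0 to 1 higher, slow from 3 to 7, fast from 6 to 8, developmental from 2 to 4 and regulators from 3 to 8. The difference in the log2 ratio Tnni1/Tnni2 ranged from -0.16 to 0.19, Tnnt1/Tnnt3 from 0.55 to 1.09, Tnnt2/Tnnt1 from -0.69 to 0.05 and Tnnt2/Tnnt3 from 0.32 to 0.78. It was -0.01 for Tnni1/Tnni2 with 2 counts added, and 0.05 for Tnnt2/Tnnt1 with the batch number as a block. The cause of these changes was not tested.

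Scaling by library size alone moved the median log2 fold change of all tested genes from 0.05 to 0.21 and the calls from 459 lower and 135 higher to 384 and 241. The count was 582 and 206 by DESeq2, 510 and 102 by limma-voom, 780 and 468 without a filter, 231 and 43 with 10 counts in every library, 448 and 117 with the block, and 184 and 37 with few unaligned reads. With 1 library left out it ranged from 221 to 466 lower and from 20 to 220 higher.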
